A study of Mus musculus with 18 samples.

Results

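The 9 genes described here are P2ry12, P2ry13, P2ry6, P2rx4, P2rx7, Adora3, Gpr34, Entpd1 and Nt5e. They encode receptors for extracellular nucleotides or adenosine, surface enzymes that convert these, and Gpr34, a related receptor that binds lysophosphatidylserine. Each is called a member below. Each was represented by the probe set annotated to that symbol alone, and the brightest over all arrays where a symbol had several. All 9 had exactly 1 such probe set, and they were 9 of 22180 genes measured. Microglia are macrophages that reside in brain tissue, and here they came from untreated C57Bl/6 mice kept under specific-pathogen-free conditions. Cells from a Percoll gradient were sorted for CD45 and CD11b and against Gr1, a gate that other brain macrophages can also pass. The 18 expression arrays formed 6 groups of 3, namely cortex and corpus callosum (a white matter tract that becomes myelinated after birth), with samples from mice of postnatal day 3 (P3), mice of postnatal day 7 (P7) and adult mice. The labels give neither the age of the adults, nor the sex, nor whether an array held 1 animal or a pool, so the p-values measure only the spread between these samples, which may be technical.

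ATP leaks from stressed or active cells and is sensed by microglia through P2X channels, which ATP opens directly, and P2Y receptors, which couple to G proteins. On the cell surface, CD39 (the product of Entpd1) strips ATP and ADP to AMP, and CD73 (the product of Nt5e) turns AMP into adenosine, which acts on adenosine receptors. In the brain P2ry12 is known as a receptor that marks microglia and steers their processes towards sites of ATP release.

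Members on mouse chromosomes 3 and 5 lie next to each other in the RefSeq gene table. P2ry13 is the nearest protein-coding neighbour of P2ry12, and P2rx4 that of P2rx7. The 250 bases before the transcription start are shown for these neighbours, to set adjacent members side by side, and for Adora3, one of the members called in both regions. They were read 5′ to 3′ on the strand of each gene from RefSeq, build GRCm38.p6, in which 7 of the 9 members had an entry (P2ry6 and Gpr34 did not). Capitals mark GGAAGT or its reverse complement ACTTCC, the core that ETS factors such as PU.1 bind.
P2ry12, chr3:59262986-59263235, minus strand: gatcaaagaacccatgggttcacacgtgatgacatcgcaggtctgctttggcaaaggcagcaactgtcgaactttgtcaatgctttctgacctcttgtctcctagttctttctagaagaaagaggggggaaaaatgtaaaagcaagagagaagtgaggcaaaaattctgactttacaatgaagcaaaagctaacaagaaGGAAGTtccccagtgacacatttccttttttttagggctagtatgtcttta
P2ry13, chr3:59210883-59211132, minus strand: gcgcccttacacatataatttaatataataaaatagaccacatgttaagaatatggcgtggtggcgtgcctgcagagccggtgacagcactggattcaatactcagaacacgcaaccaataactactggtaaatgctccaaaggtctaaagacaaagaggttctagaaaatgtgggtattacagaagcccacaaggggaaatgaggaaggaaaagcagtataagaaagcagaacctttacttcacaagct
P2rx7, chr5:122643677-122643926, plus strand, the first of 2 listed starts: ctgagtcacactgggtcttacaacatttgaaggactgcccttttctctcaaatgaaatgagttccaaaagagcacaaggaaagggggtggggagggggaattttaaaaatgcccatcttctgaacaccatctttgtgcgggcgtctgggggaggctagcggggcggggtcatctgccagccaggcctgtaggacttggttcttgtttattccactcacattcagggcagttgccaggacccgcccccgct
P2rx4, chr5:122707294-122707543, plus strand: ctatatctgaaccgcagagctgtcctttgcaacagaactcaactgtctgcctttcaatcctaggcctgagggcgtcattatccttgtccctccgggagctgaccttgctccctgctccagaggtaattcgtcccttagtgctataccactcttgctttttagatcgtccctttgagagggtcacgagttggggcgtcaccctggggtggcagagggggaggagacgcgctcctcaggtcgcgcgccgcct
Adora3, chr3:105904171-105904420, plus strand: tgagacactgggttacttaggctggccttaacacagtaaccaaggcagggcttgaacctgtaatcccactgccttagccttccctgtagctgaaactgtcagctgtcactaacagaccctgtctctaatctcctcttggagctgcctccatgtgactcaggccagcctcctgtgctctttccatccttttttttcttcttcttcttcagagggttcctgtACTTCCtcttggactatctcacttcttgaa
The ETS core occurred in 19.7% of all 32851 listed promoters of this length, and here once in P2ry12, starting 51 bases before the start site, and once in Adora3, starting 30 bases before it. The AP-1 motif TGANTCA was present in Adora3 and in the first P2rx7 promoter, against 6.75% of all promoters. The GC box GGGCGG, found in 32.7% of all promoters, matched at 2 places in the first P2rx7 promoter. Over the 7 members with an entry, each of the 3 motifs was found in 2: the ETS core in P2ry12 and Adora3, the AP-1 motif in P2rx7 and Adora3, and the GC box in P2rx7 and Nt5e, the last with 4 matches. Entpd1, called in both regions, held none of them in either of its 2 listed promoters, nor did P2ry13 and P2rx4. Both strands were searched for each motif, no matches of different motifs overlapped in the printed promoters, and the motifs were chosen with the sequences in view. A match is a description of these letters and no evidence of binding.

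Markers of the labelled cell type were present on all arrays. Of 12 microglial markers 11 were measured, and the lowest value of any of them on any array was 7.29 (Tmem119), while Cx3cr1 had group means between 11.83 and 12.35 on the log2 scale of the deposited values. Array medians ranged from 5.58 to 5.74 over all probe sets. Of 7 lymphocyte markers 6 stayed below every array median (Cd3e at most 5.13), and Nkg7 read 5.90 to 6.69. Platelets are blood cells that also use P2ry12. Of their 5 measured markers Ppbp stayed below every array median (at most 5.51), Itga2b (5.34 to 5.78) and Gp6 (5.14 to 5.90) lay around them, and Gp9 (6.59 to 8.36) and Treml1 (6.51 to 7.20) lay above them on all arrays. Of 10 border-associated macrophage markers, Mrc1 ranged from 5.56 to 11.18, Folr2 reached 9.88 and Cd163 stayed below every array median (at most 5.24). The highest values of the others ran from 5.84 (Clec4n) to 7.94 (F13a1). Of 10 neutrophil markers, Cxcr2 reached 9.43, S100a8 8.76 and S100a9 8.44. Ly6g, Camp, Ltf and Retnlg stayed below every array median (at most 5.46), and Mpo, Ngp and Elane reached at most 6.13. Of 7 monocyte markers, Lyz2 read 8.53 to 10.69, and the highest values of the others ran from 4.98 (Ly6c2) to 6.49 (Plac8). In such sorted bulk samples, fewer cells of a type and less RNA per cell cannot be told apart.

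**Figure D1:**
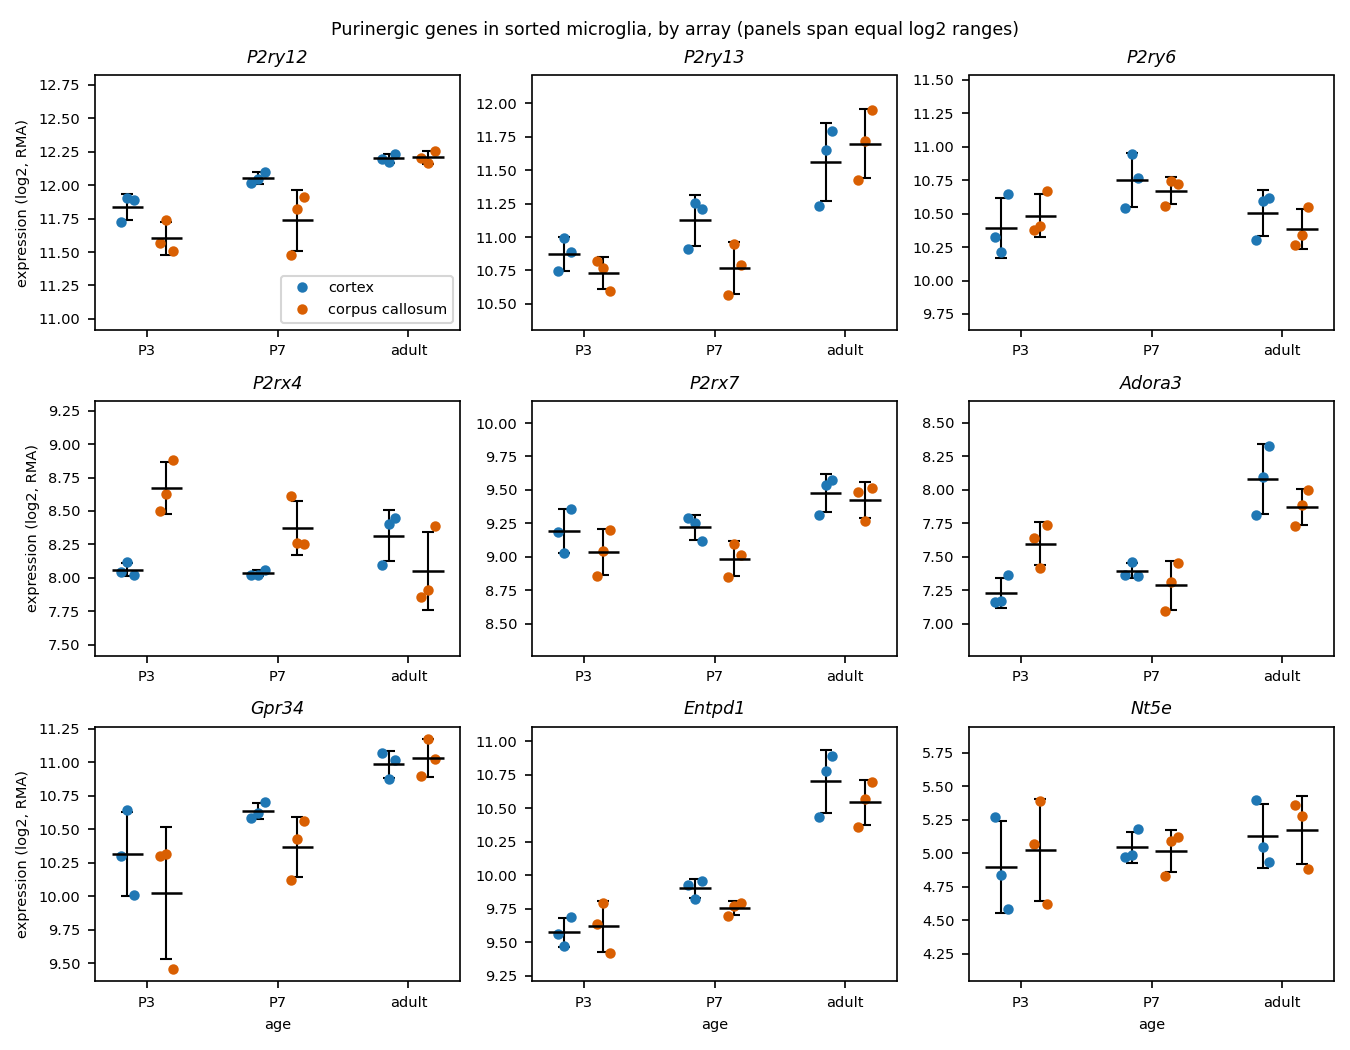
Expression (log2 RMA value, y axis) of the 9 genes by age (x axis), with 1 point per array for cortex (blue) and corpus callosum (orange), a black bar at the group mean and error bars of 1 SD (n = 3). P2ry12, Adora3, Gpr34 and Entpd1 had all 6 adult arrays above all P7 arrays. The P2rx4 arrays of corpus callosum lay above those of cortex of the same age at P3 and P7, without a call.

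Between P7 and adulthood, most of the members, among them the enzyme CD39, rose in corpus callosum microglia. In that comparison 6 of 9 members were called, all higher in the adult: P2ry12, P2ry13, P2rx7, Adora3, Gpr34 and Entpd1. In cortex 2 of 9 were called, Adora3 and Entpd1, both higher in the adult. Calls rest on limma at an adjusted p under 0.05 (Benjamini-Hochberg over all 22180 genes), by which 17.2% of all genes were called in corpus callosum and 10.2% in cortex, or 6.56% and 4.05% in the upward direction. Those shares include genes of low level, whereas all members but Nt5e lay above every array median. The share among genes of similar level is not given here. The median difference of the members was 0.47 in corpus callosum and 0.28 in cortex, beside 0.05 and 0.03 over all genes.

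P2ry12, the ADP receptor coupled to the inhibitory G protein Gi, read 11.48, 11.82 and 11.91 log2 units on the P7 corpus callosum arrays and 12.20, 12.16 and 12.26 on the adult ones. In cortex it read 12.01, 12.04 and 12.10 at P7 and 12.19, 12.17 and 12.23 in the adult. All 6 adult arrays therefore lay above all P7 arrays, and the adult values of both regions fell into a narrow band. The rise was 0.47 ± 0.12 (SE) in corpus callosum, or 1.38-fold (adjusted p 0.00842, limma), and the difference in cortex was 0.15 ± 0.12 (adjusted p 0.564, limma). At P3 the arrays read 11.73, 11.90 and 11.89 in cortex and 11.56, 11.74 and 11.51 in corpus callosum. The order of the group means ran from corpus callosum at P3 (11.60) over corpus callosum at P7 (11.74), cortex at P3 (11.84), cortex at P7 (12.05) and adult cortex (12.20) to adult corpus callosum (12.21). In that order the arrays of neighbouring groups overlapped except between cortex at P3 and at P7 and between cortex at P7 and in the adult.

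P2ry13, the second ADP receptor of microglia, covered a wider range, from 10.57 to 11.95. Its corpus callosum arrays read 10.57, 10.95 and 10.79 at P7 and 11.43, 11.71 and 11.95 in the adult, without overlap. The rise of 0.93 ± 0.16, or 1.90-fold (adjusted p 0.00044, limma), was the highest of the 18 adult against P7 differences of the members. In cortex the arrays read 10.91, 11.26 and 11.21 at P7 and 11.23, 11.65 and 11.79 in the adult, where adult replicate 1 fell among the P7 values. The difference there was 0.43 ± 0.16 (adjusted p 0.115, limma). Without that array it was 0.60 (adjusted p 0.0269, limma), and over all alternatives the adjusted p ranged from 0.0114 to 0.364. The P3 arrays read 10.74, 11.00 and 10.89 in cortex and 10.82, 10.77 and 10.60 in corpus callosum. The group means rose in the same order of groups as those of P2ry12, and the arrays of every pair of neighbours overlapped.

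Gpr34, a lysophosphatidylserine receptor related to the P2Y family, read 10.12, 10.42 and 10.56 on the P7 corpus callosum arrays and 10.90, 11.18 and 11.02 on the adult ones. The rise was 0.66 ± 0.20, or 1.58-fold (adjusted p 0.0265, limma). In cortex the values were 10.59, 10.62 and 10.71 at P7 and 11.07, 10.87 and 11.02 in the adult, again without overlap, with a difference of 0.35 ± 0.20 (adjusted p 0.36, limma). Its spread was widest at P3, with 10.30, 10.64 and 10.01 in cortex and 10.30, 10.31 and 9.45 in corpus callosum, where replicate 3 was the lowest of all arrays. Adult cortex (10.99) and adult corpus callosum (11.03) were the highest groups and overlapped.

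P2rx7, an ATP-gated channel that opens at high ATP and can trigger the inflammasome, read 8.85, 9.10 and 9.02 at P7 and 9.49, 9.27 and 9.51 in the adult corpus callosum. The groups did not overlap, and the rise was 0.44 ± 0.13, or 1.35-fold (adjusted p 0.0247, limma). In cortex the values were 9.29, 9.25 and 9.12 at P7 and 9.31, 9.54 and 9.58 in the adult, also without overlap (0.26 ± 0.13, adjusted p 0.282, limma). Its P3 arrays read 9.19, 9.03 and 9.36 in cortex and 8.86, 9.05 and 9.20 in corpus callosum. The group means lay between 8.99 (corpus callosum at P7) and 9.48 (adult cortex), and all neighbours in their order overlapped.

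The calls of P2ry12, Gpr34 and P2rx7 in corpus callosum depended on single arrays. Corpus callosum replicate 1 at P7 was the lowest of its group for 8 of the 9 members, all but P2rx4, for which it was the highest. That array also had the lowest microglial marker mean of its group (10.20, against 10.37 on each of the others) and the highest neutrophil marker mean (5.65, against 4.91 and 4.88), whose part in the result was not tested. Without it 3 members were called, P2ry13, Adora3 and Entpd1. P2ry12 then differed by 0.34 (adjusted p 0.0638, limma), Gpr34 by 0.54 (adjusted p 0.126, limma) and P2rx7 by 0.37 (adjusted p 0.113, limma). Gpr34 was also lost without corpus callosum P7 replicate 2 (adjusted p 0.0554) or adult replicate 2 (0.0979) or 3 (0.0572). P2rx7 was lost without P7 replicate 3 (0.0555) or adult replicate 1 (0.0791) or 3 (0.0804), all from limma in corpus callosum. The differences themselves moved less, with 0.54 to 0.76 for Gpr34 and 0.37 to 0.51 for P2rx7 over the single arrays left out. Over all alternatives the adjusted p ranged from 0.000777 to 0.0638 for P2ry12, from 0.00251 to 0.126 for Gpr34 and from 0.00189 to 0.113 for P2rx7.

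Entpd1 (CD39) and Adora3, the adenosine receptor of the Gi-coupled A3 type, rose with age in both regions and kept their calls in every alternative run. Entpd1 read 9.92, 9.82 and 9.96 in cortex at P7 and 10.43, 10.77 and 10.89 in the adult. In corpus callosum it read 9.69, 9.77 and 9.79 at P7 and 10.36, 10.57 and 10.70 in the adult. No adult array came near a P7 array, and the rise was 0.80 ± 0.13, or 1.74-fold, in cortex (adjusted p 0.000478, limma) and 0.79 ± 0.13, or 1.73-fold, in corpus callosum (adjusted p 0.00034, limma). The P3 arrays were lower still or similar, with 9.56, 9.47 and 9.69 in cortex and 9.63, 9.80 and 9.42 in corpus callosum. The gap of 0.64 between cortex at P7 (9.90) and adult corpus callosum (10.54) was the widest step in the order of its groups.

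Adora3 read 7.37, 7.46 and 7.36 in cortex at P7 and 7.81, 8.10 and 8.33 in the adult, a rise of 0.68 ± 0.14, or 1.61-fold (adjusted p 0.00279, limma). In corpus callosum it read 7.09, 7.31 and 7.45 at P7 and 7.73, 7.89 and 8.0 in the adult, a rise of 0.59 ± 0.14, or 1.50-fold (adjusted p 0.00616, limma). Adult arrays did not overlap with P7 arrays in either region. The highest adjusted p over the alternatives was 0.024 in cortex and 0.0425 in corpus callosum.

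P2ry6, a receptor for UDP that promotes phagocytosis, went the other way without reaching a call. It lay between 10.22 and 10.95 on all arrays, with the highest group mean in cortex at P7 (10.75 ± 0.20, SD, n = 3) and the lowest in adult corpus callosum (10.39 ± 0.15, SD, n = 3). The difference between adult and P7 was -0.25 ± 0.15 in cortex (adjusted p 0.386, limma) and -0.29 ± 0.15 in corpus callosum (adjusted p 0.204, limma). Its 6 groups spanned 1.29-fold, and neighbours in their order all overlapped.

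Nt5e (CD73), the enzyme that completes the path from ATP to adenosine, lay between 4.59 and 5.40 on all arrays, below the median of every array. No detection call was used, so these values do not show whether the transcript was present. Adult and P7 differed by 0.08 ± 0.20 in cortex (adjusted p 0.889, limma) and 0.16 ± 0.20 in corpus callosum (adjusted p 0.653, limma), and the order of the groups, all overlapping, carries no ranking.

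**Figure D2:**
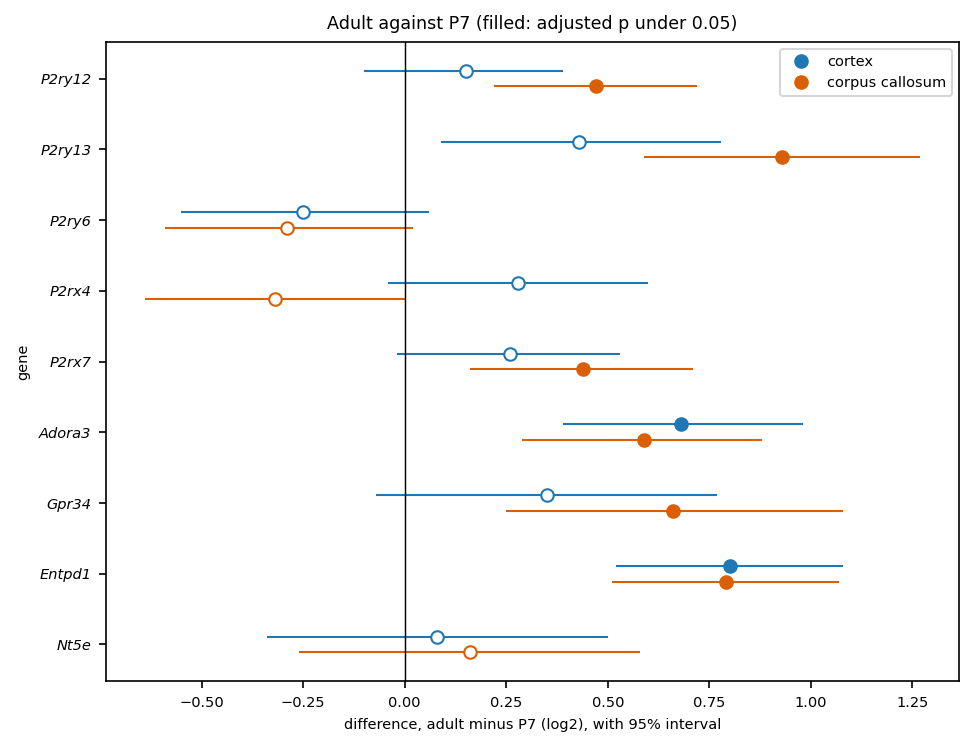
Difference between adult and P7 (log2, x axis) for each gene (y axis) in cortex (blue) and corpus callosum (orange), with 95% intervals from the limma fit; filled points are called at an adjusted p under 0.05. The 6 filled corpus callosum points and the 2 filled cortex points all lie to the right of 0.

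Arrays of adult and P7 mice did not overlap for 6 members higher in cortex (P2ry12, P2rx4, P2rx7, Adora3, Gpr34 and Entpd1), where 13.7% of all genes were separated upwards. In corpus callosum 6 members were separated upwards, where 17.7% of all genes were, and P2ry6 downwards, where 17% were. A call in corpus callosum and none in cortex does not show that the regions differed in their change. That difference was tested as the change of the regional difference between P7 and adulthood, and limma called 0 of 9 members (0.203% of all genes; 2 members at an unadjusted p under 0.05). P2ry13 rose by 0.49 ± 0.23 more in corpus callosum than in cortex (95% interval 0.01 to 0.98, adjusted p 0.66, limma). Markers shifted with age as well. Of the microglial markers 6 of 11 were called higher in the adult cortex and 7 of 11 in the adult corpus callosum, with array means of 10.73 to 11.07 and 10.75 to 10.94 against 10.52 to 10.54 and 10.20 to 10.37 at P7. Border-associated macrophage markers had 4 and 5 of 10 called lower, with array means of 5.30 to 5.37 in adult cortex and 5.40 to 5.47 in adult corpus callosum against 6.27 to 6.64 and 6.44 to 6.73 at P7. Platelet markers had 1 of 5 called higher in each region (Gp9), with array means of 6.31 to 6.40 over all adult arrays and 5.93 to 6.14 over all P7 arrays. Neuron markers had 3 of 11 called lower in cortex (Stmn2, Tubb3 and Gap43), with array means of 5.31 to 5.45 in the adult and 5.69 to 5.77 at P7. Astrocyte markers had 2 of 8 called higher in cortex (Aqp4 and Slc1a3) and 1 in corpus callosum (Slc1a3), with array means of 5.58 to 5.73 and 5.47 to 5.58 in the adult against 5.35 to 5.42 and 5.31 to 5.44 at P7. Of 7 monocyte markers 1 was called higher and 2 lower in cortex, and 1 each way in corpus callosum, with overlapping array means. Fibroblast marker means were 4.91 to 4.93 in adult and 4.81 to 4.88 in P7 corpus callosum, with 0 of 7 called. Of 7 oligodendrocyte markers 1 (Mbp) was called lower in corpus callosum, with a list median of 0.09 and overlapping array means. Of 10 endothelial and mural markers 1 (Pecam1) was called higher in cortex, with a list median of 0.08 and overlapping array means. The part of these markers in the result was not tested.

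Between the regions, no member was called at any age. Corpus callosum against cortex gave 0 of 9 calls in limma at P3 (0.505% of all genes), at P7 (0.451%) and in the adult (0.00451%), with 2, 3 and 0 members at an unadjusted p under 0.05. P2rx4 was the member whose corpus callosum arrays lay above the cortex arrays at both P3 and P7, separations in that direction that 9.17% and 8.97% of all genes showed. P2rx4 is an ATP-gated channel of high sensitivity that sits largely in lysosomes of microglia.

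P2rx4 read 8.05, 8.12 and 8.02 in cortex and 8.50, 8.63 and 8.88 in corpus callosum at P3. The groups did not overlap, and the difference was 0.61 ± 0.15, or 1.52-fold (95% interval 0.29 to 0.93, adjusted p 0.0808, limma), short of the threshold. It passed when genes below the median level were left out (adjusted p 0.0385) and with a trended, robust variance (0.0472), in a range of 0.0385 to 0.224 over all alternatives. At P7 the values were 8.02, 8.02 and 8.06 in cortex and 8.61, 8.26 and 8.25 in corpus callosum, again without overlap (0.34 ± 0.15, 95% interval 0.02 to 0.66, adjusted p 0.666, limma). In the adult they were 8.09, 8.40 and 8.45 in cortex and 7.86, 7.91 and 8.39 in corpus callosum, which overlapped (-0.26 ± 0.15, 95% interval -0.58 to 0.06, adjusted p 0.672, limma). Markers of other cells differed between the regions as well. At P3 the border-associated macrophage genes Folr2 and Ms4a7 were called higher in corpus callosum (2 of 10, array means 6.27 to 7.12 against 5.96 to 6.43 in cortex), and so was the monocyte gene Lyz2. The neuron genes Gap43 and Meg3 were called lower (2 of 11, array means 5.58 to 6.08 against 6.15 to 6.46). At P7 Folr2 was again called higher (1 of 10, array means 6.44 to 6.73 against 6.27 to 6.64). Neutrophil markers had 0 of 10 called, with list medians of 0.28 at P3 and 0.19 at P7 and overlapping array means. Corpus callosum P3 replicate 3 had the highest border-associated macrophage (7.12) and neutrophil (6.23) marker means of all arrays. That array also had the highest P2rx4 value of all (8.88) and the highest Adora3 value of its group (7.74). Without it P2rx4 differed by 0.50 at P3 (adjusted p 0.185, limma), in a range of 0.50 to 0.69 without single arrays. The part of these markers in the P2rx4 and Adora3 values was not tested.

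The regional difference of P2rx4 changed by -0.87 ± 0.21 between P3 and the adult (95% interval -1.32 to -0.42, adjusted p 0.0967, limma) and by -0.60 ± 0.21 between P7 and the adult (adjusted p 0.486, limma). Neither passed the threshold, nor did any other member in these tests (0.18% of all genes called between P3 and the adult, where 2 members had an unadjusted p under 0.05). The change from P3 also crosses array sets, as the P3 arrays carry a label prefix of their own. A set effect cancels there only if it is equal in both regions. Leaving out corpus callosum adult replicate 3, which had the highest P2rx4 level of its group, gave -1.04 (adjusted p 0.041, limma; range over alternatives 0.041 to 0.23). With age alone, P2rx4 differed between adult and P7 by 0.28 ± 0.15 in cortex (adjusted p 0.325, limma) and -0.32 ± 0.15 in corpus callosum (adjusted p 0.17, limma). The latter was called without corpus callosum adult replicate 3 (-0.49, adjusted p 0.0315, limma; range over alternatives 0.0315 to 0.487). The group means ran from 8.03 in cortex at P7 to 8.67 in corpus callosum at P3, and neighbours in that order overlapped.

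Of the remaining members, P2ry12, P2ry13, P2rx7 and Gpr34 lay below cortex at both P3 and P7, none of them called. P2ry12 differed by -0.24 ± 0.12 at P3 (95% interval -0.48 to 0.01, adjusted p 0.414, limma), by -0.31 ± 0.12 at P7 (-0.56 to -0.07, adjusted p 0.493, limma) and by 0.01 ± 0.12 in the adult (-0.24 to 0.26, adjusted p 0.991, limma). P2ry13 differed by -0.36 ± 0.16 at P7 (-0.70 to -0.01, adjusted p 0.694, limma). Adora3, with 7.16, 7.17 and 7.36 in cortex and 7.64, 7.42 and 7.74 in corpus callosum at P3, differed by 0.37 ± 0.14 (0.07 to 0.66, adjusted p 0.261, limma). At P7 8 of 9 members lay below cortex, with a member median of -0.15 beside 0.00 over all genes. P2ry12, P2rx7, Gpr34 and Entpd1 had P7 corpus callosum arrays entirely below the cortex arrays, where 7.76% of all genes did. In the adult the arrays of both regions overlapped for all 9 members, while 12.8% of all genes were separated. The 95% intervals of the adult differences, each taken gene by gene, ran at most from -0.58 to 0.48 over the 9 members. They rest on the spread between these samples, which may be technical, so they do not bound a regional difference between animals. At P7 the microglial marker means were likewise below those of cortex (10.20 to 10.37 against 10.52 to 10.54, 0 of 11 called), as were the neuron marker means (5.56 to 5.63 against 5.69 to 5.77, 0 of 11 called), whose part was not tested. The regional and the adult against P7 comparisons share the P7 corpus callosum arrays, so low values there enter both.

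**Figure D3:**
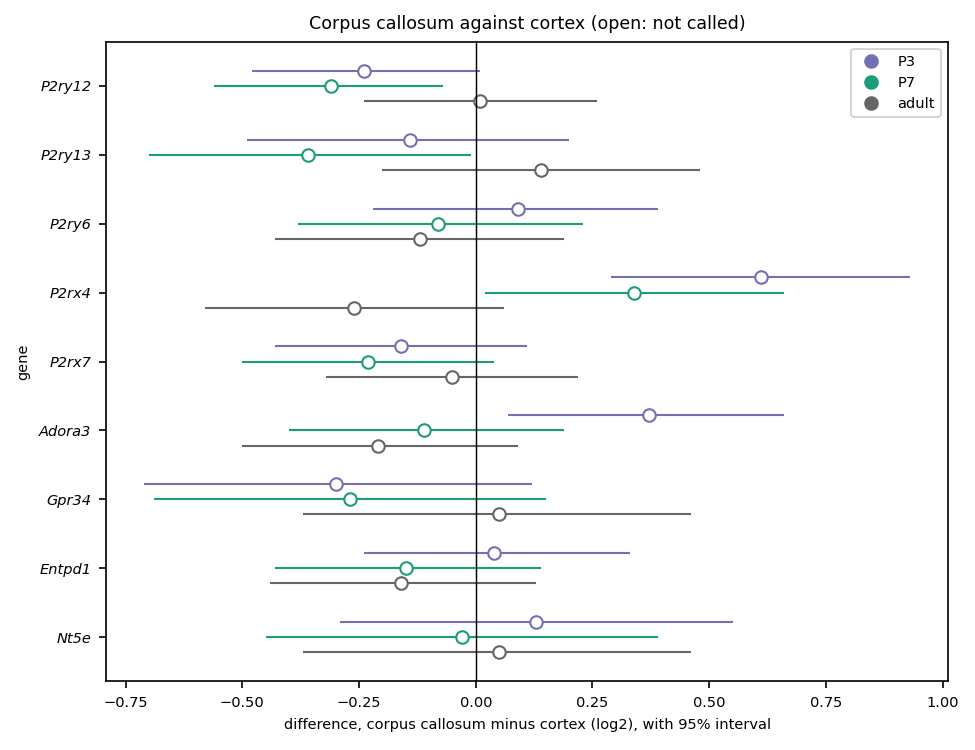
Difference between corpus callosum and cortex (log2, x axis) for each gene (y axis) at P3 (purple), P7 (green) and in the adult (grey), with 95% intervals from the limma fit; all points are open because none was called. P2rx4 lies at 0.61 and 0.34 at P3 and P7 and at -0.26 in the adult, while P2ry12 and P2ry13 lie below 0 at P3 and P7.

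From P3 to P7 no member was called in limma, in cortex (0.884% of all genes; 2 members at an unadjusted p under 0.05) or in corpus callosum (0.739%; 1 member). The P3 arrays are named with a prefix of their own in the labels. Age and array set therefore cannot be told apart here, nor wherever P3 levels are set beside those of other ages. In cortex 8 of 9 members lay higher at P7, with P2ry6 at 0.36 ± 0.15 (adjusted p 0.295, limma) and Entpd1 at 0.33 ± 0.13 (adjusted p 0.297, limma). In corpus callosum Adora3 lay lower at P7 by -0.31 ± 0.14 (adjusted p 0.324, limma). The change of the regional difference from P3 to P7 was not called for any member either (0% of all genes; 1 member at an unadjusted p under 0.05), and for Adora3 it was -0.48 ± 0.20 (adjusted p 0.868, limma).

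Several members share their genomic position with another gene. P2ry12 and P2ry13 lie within the span of Med12l, P2rx4 overlaps Camkk2, and Gpr34 lies within Cask. Adora3 overlaps Tmigd3, and Entpd1 overlaps the predicted genes Gm16027, Gm41846 and Gm8783, which were not set beside them here. The sources used here do not say whether the labelling kept the strand, so signal of overlapping genes may not be separate. Med12l, a gene of the Mediator complex family, read 6.54 to 7.32 on all arrays and rose by 0.49 ± 0.12 in corpus callosum from P7 to the adult (adjusted p 0.00677, limma) and differed by 0.14 ± 0.12 in cortex (adjusted p 0.589, limma), close in size to the P2ry12 differences above. Its correlation with P2ry12 over the 18 arrays, which share group structure, was 0.75, and 0.63 after the group means were subtracted. With P2ry13 it was 0.69, and 0.37 after that step. Cask rose by 1.26 ± 0.14 in corpus callosum (adjusted p 3.3e-06, limma) and 1.04 ± 0.14 in cortex (adjusted p 3.92e-05, limma). Its correlation with Gpr34 was 0.64 over all arrays, and after group means were subtracted it turned to -0.57. Camkk2 was not called between the regions or between P7 and the adult, and it correlated with P2rx4 at 0.26 over all arrays and at 0.70 after group means were subtracted. The part of these overlaps in the members' values was not tested.

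The other genes of nucleotide signalling were taken from lists of receptors, enzymes, transporters and effectors, some of which also act elsewhere. The lists were chosen with earlier results of these data known, so the shares below describe the listed genes and carry no test. Of 99 listed genes 87 were measured here. From P7 to the adult, 15 rose and 15 fell in corpus callosum (34.5% called, against 17.2% of all genes), and 9 rose and 8 fell in cortex (19.5%, against 10.2%). Between the regions 1 was called at P7, 0 at P3 and 0 in the adult.

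Among the other receptors 2 of 13 were called between P7 and the adult in corpus callosum, beside 17.2% of all genes, and 1 of 13 in cortex, beside 10.2%. The adenosine receptors Adora1, Adora2a and Adora2b were not analysed here. Of 8 P2Y receptors and close relatives beside the members, Gpr171, an orphan receptor of the gene cluster around P2ry12, was the 1 called, higher in adult than in P7 corpus callosum (6.22 against 5.62, 0.61 ± 0.15, adjusted p 0.00706, limma). Of 5 further P2X channels, P2rx1 fell from 6.97 to 6.16 in cortex (-0.81 ± 0.14, adjusted p 0.000721, limma) and from 6.88 to 6.26 in corpus callosum (-0.61 ± 0.14, adjusted p 0.00486, limma). Of 5 other ectonucleotidases none was called in any comparison.

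In the Gi and PI3 kinase arm, through which P2ry12 acts, 2 of 15 genes rose and 4 fell in corpus callosum (17.2% of all genes called). In cortex 2 rose and 3 fell (10.2% of all genes called). Both risers encode PI3 kinase gamma, the form that G proteins activate. The catalytic subunit Pik3cg rose by 0.70 ± 0.11 in corpus callosum and 0.61 ± 0.11 in cortex, and the regulatory subunit Pik3r5 by 0.81 ± 0.15 and 0.76 ± 0.15 (adjusted p 0.00016 to 0.00208, limma). Among those that fell, the integrin chain Itgb1 changed by -0.80 ± 0.13 in corpus callosum and -0.75 ± 0.13 in cortex, and the small GTPase Rac2 by -0.82 ± 0.17 and -0.65 ± 0.17 (adjusted p 0.000163 to 0.0193, limma). The alpha subunits Gnai3 in corpus callosum (-0.63 ± 0.13, adjusted p 0.0025, limma) and Gnai2 in cortex (-0.48 ± 0.14, adjusted p 0.0327, limma) fell too. Kcnk13, the potassium channel THIK-1 of microglia, was named after its values were seen: its group means lay between 7.02 and 7.16, and it was not called in any comparison.

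In the Gq arm, through which P2ry6 acts, 3 of 11 genes rose and 1 fell in corpus callosum (17.2% of all genes called). In cortex 2 rose and 1 fell (10.2% of all genes called). The calcium release channel Itpr2 rose by 0.98 ± 0.16 and 0.66 ± 0.16, and phospholipase Plcb2 by 0.71 ± 0.13 and 0.47 ± 0.13, in corpus callosum and cortex (adjusted p 0.000279 to 0.0261, limma). Prkcd, a protein kinase C, rose in corpus callosum (0.56 ± 0.17, adjusted p 0.0239, limma), and the small GTPase Rhoa fell by 0.35 in corpus callosum (adjusted p 0.0184, limma) and by 0.37 in cortex (adjusted p 0.021, limma).

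The list of P2X4 and P2X7 effectors also held other genes, such as Irf8, a regulator of P2rx4. Of its 13 measured genes, 7 rose and 2 fell in corpus callosum (17.2% of all genes called). Their median there was 0.48 beside 0.05 over all genes. In cortex 3 rose (10.2% of all genes called). Casp4, an inflammatory caspase, rose by 1.17 ± 0.26 in corpus callosum and 1.25 ± 0.26 in cortex, and the cytokine gene Il18, whose product the inflammasome matures, by 0.70 ± 0.16 and 0.58 ± 0.16 (adjusted p 0.00291 to 0.0222, limma). Mapk14, the kinase p38, rose by 0.72 ± 0.13 in corpus callosum (adjusted p 0.000806, limma). Irf8, a transcription factor that regulates P2rx4, rose by 0.62 ± 0.14 in cortex (adjusted p 0.00502, limma) and 0.53 ± 0.14 in corpus callosum (adjusted p 0.0102, limma). The inflammasome sensor Nlrp3, with Gsdmd and Il1b the others called higher in corpus callosum, rose by 0.70 ± 0.18 (adjusted p 0.00973, limma). Pycard, the inflammasome adaptor, fell by 0.46 (adjusted p 0.0169, limma). Cd9, a tetraspanin, was higher in corpus callosum than in cortex at P7 (11.00 against 10.02, 0.98 ± 0.14, adjusted p 0.00135, limma) and fell in corpus callosum to 10.08 in the adult (-0.92 ± 0.14, adjusted p 0.000121, limma). The change of its regional difference was -1.02 ± 0.20 (adjusted p 0.0459, limma).

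**Figure D4:**
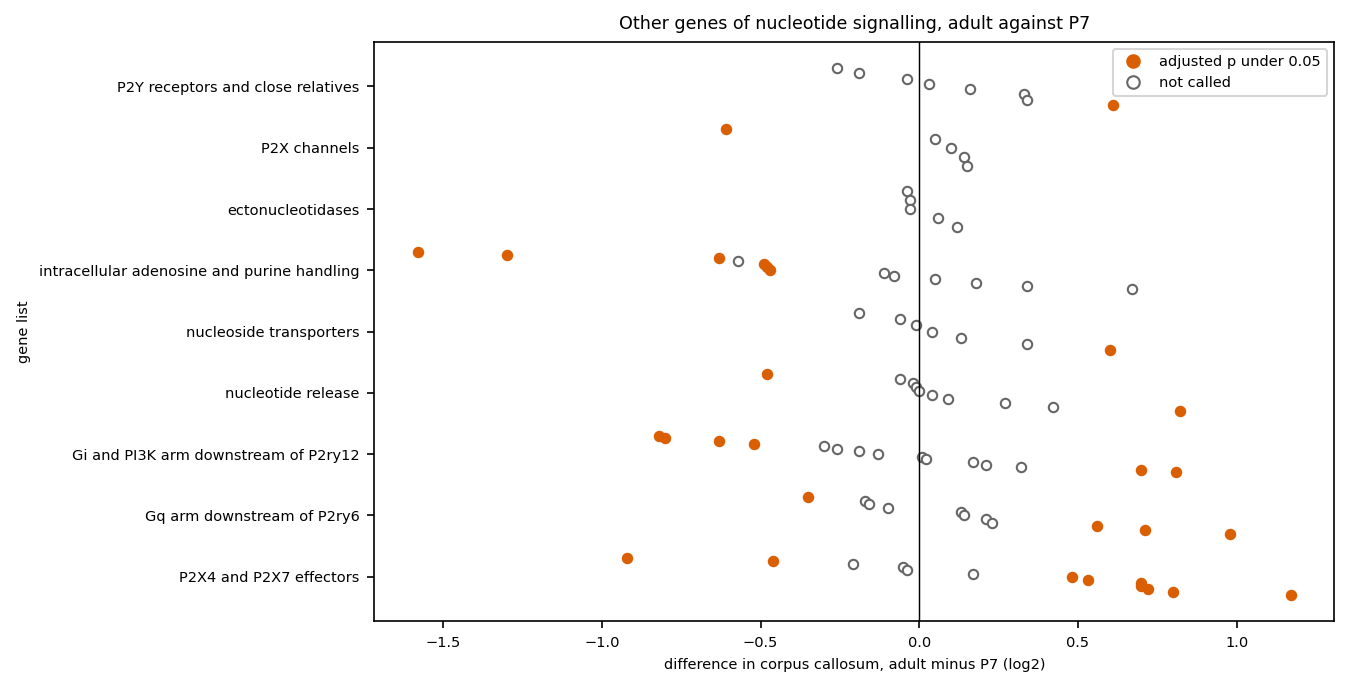
Difference between adult and P7 in corpus callosum (log2, x axis) for the 87 measured genes beside the members, grouped by list (y axis); filled orange points are called at an adjusted p under 0.05 and open points are not. Called genes lie on both sides of 0, and 17.2% of all genes were called. The list of P2X4 and P2X7 effectors, which also holds the P2rx4 regulator Irf8, has 7 filled points on the right and 2 on the left.

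The genes whose pattern was most like each member were found by Pearson correlation over the 18 arrays among 6065 genes that reached 7 in a group mean. These values describe the arrays, whose groups they share, and carry no test. P2ry12 was followed most closely by Mgat4a (0.97), Tjp1 (0.96) and Dock10 (0.95), and P2ry13 by Txnip, Senp2 and Mlxipl (0.96 each). For Entpd1 they were Fscn1 (0.98), Fam102b and Irgm2 (0.97 each), and for Adora3 Cyrib (0.95), Ctss and Usp2 (0.94 each). Gpr34 was nearest to Siglech, Dusp6 and Rgs2 (0.90 each), and P2rx7 to Kmt2a (0.94), Fgd2 and Ssh2 (0.93 each). P2ry6 was nearest to Supt6 (0.93), Uggt1 (0.92) and Erap1 (0.91), and P2rx4 to Cope and Rcan1 (0.87 each) and Hif1a (0.86). For Nt5e no gene exceeded 0.68. Among the members, P2ry12 correlated with P2ry13 and with Gpr34 at 0.88 each, which fell to 0.49 and 0.53 after the group means were subtracted, and with P2rx4 at -0.57 (-0.31 after that step). The neighbours P2rx4 and P2rx7 correlated at -0.27, which turned to 0.28 after the group means were subtracted.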

How the data were processed

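The authors deposited log2 expression values for each probe set on each array. The submitters' processing notes name RMA, the robust multi-array average, which subtracts background, equalises the array distributions and combines probes. Its version, its settings and the annotation build: not given in the sources used here. No label names the log base, which was read as 2 because the values ran from 0.87 to 13.8. Levels of different probe sets were not compared. Of 41345 probe sets, 23521 had 1 symbol in GEO's platform annotation, 1814 several and 16010 none; the brightest per symbol gave 22180 genes, and some listed genes were not used here.

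All 18 arrays entered 1 limma fit (version 3.58.1, R 4.3.3) of 6 group means with 12 residual degrees of freedom and 10 two-sided contrasts, without a filter. Only 3 arrays per group limit the precision, and the smallest exact p for such groups, 0.1, could not pass. The fit was tested on simulated data with independent noise for each gene. Those data hold no deviations shared across an array, so that test does not cover such deviations. The members, lists, motifs and comparisons were chosen with earlier results of these data known. Listed genes were named where called, at most 3 per direction, comparison and list by adjusted p; Kcnk13, Gsdmd, Irf8 in corpus callosum, Il1b and Nlrp3 fall outside this and were named after their values were seen. The alternatives tried were a filter on low levels, the mean over probe sets, repeated quantile normalization, a trended and robust variance, fits of the compared groups or of each array set alone, a replicate block, and leaving out each array. Leaving out both adult replicate 1 arrays was chosen after seeing the data.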

Additional observations from a re-analysis of the deposited data

How the results depend on the processing

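Of the 8 called differences between adult and P7, 0 changed sign under the alternatives, and 100 of their 112 alternative values kept the call; the other 12, all in corpus callosum, concern P2ry12, P2rx7 and Gpr34. Leaving out 1 array at a time gave 3 to 5 called members in corpus callosum and 2 to 3 in cortex. With only the compared groups in the fit, P2ry12 (adjusted p 0.0527, limma) and P2rx7 (adjusted p 0.0517, limma) were not called in corpus callosum, and without both adult replicate 1 arrays P2rx7 was not (adjusted p 0.0659, limma). In cortex P2ry13 was called after repeated quantile normalization (0.62, adjusted p 0.0114, limma) and without both adult replicate 1 arrays (0.60, adjusted p 0.0162, limma). Between the regions at P3, 1 member (P2rx4) was called with the filter on low levels and 1 with the trended, robust variance. For the change of the regional difference from P3 to the adult, 1 member (P2rx4) was called with that filter, and 0 to 1 when single arrays were left out. These causes were not tested, beyond the smaller number of genes tested under the filter. Differences near 0 changed sign: P2ry12 between the adult regions ranged from -0.02 to 0.03 without single arrays (-0.01 without cortex adult replicate 2), and Nt5e in cortex from -0.05 to 0.18, with -0.05 without both adult replicate 1 arrays. Of 1219 alternative values of the 82 uncalled differences, 61 changed sign and 9 became calls. Counts over all genes moved by more than 1.5 times in the smaller comparisons: 16 to 251 at P3 (112 in the fit reported), 40 to 145 at P7 (100) and 1 to 3 in the adult (1) between the regions, from P3 to P7 72 to 270 (196) for cortex against 5 to 506 (164) for corpus callosum, and 10 to 85 (45) from P7 and 0 to 190 (40) from P3 for the change of the regional difference to the adult. They were 1567 to 2585 (2264) and 2917 to 4042 (3822) for adult against P7 in cortex and corpus callosum.

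Cortex and corpus callosum arrays share replicate numbers. Deviations from the group means of same-numbered arrays correlated at 0.02 to 0.30 over the 9 pairs, and not every pair of an age exceeded 0.1. The same-numbered corpus callosum array was the best match of every cortex array at P7. At P3 and in the adult it was so for all but replicate 2. Arrays of P7 and adult mice, which share no animals, correlated at 0.04 to 0.24 by replicate number within a region. The same-numbered adult array was the best match of every corpus callosum P7 array, but in cortex only of replicate 1. Between P3 and P7 such correlations were -0.02 to 0.05. The labels do not say whether same-numbered samples of cortex and corpus callosum shared animals. The fit reported did not pair them, and pairing was tried only as a replicate block. With a replicate block P2ry13 was called in cortex between P7 and the adult (0.43, adjusted p 0.0477, limma), which made 3 members, and no other call of a member changed. The replicate block does not use any animal identity. Signal over background was not given, which limits Nt5e most.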

Other observations

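Of 13 measured genes that handle purines inside the cell, 6 were called lower and 0 higher in adult than in P7 corpus callosum (17.2% of all genes were called), with a median of -0.47 beside 0.05 over all genes. In cortex 3 were called lower and 0 higher (10.2% of all genes), with a median of -0.33 beside 0.03. Not all of the list lay lower: Pnp, which splits nucleosides, was not called and read 7.93 against 7.26 in corpus callosum (adjusted p 0.0552, limma) and 8.24 against 7.76 in cortex (adjusted p 0.258, limma), named after its values were seen. Dck, which phosphorylates deoxynucleosides for DNA synthesis, fell from 6.76 to 5.46 in corpus callosum (-1.30 ± 0.17, adjusted p 1.65e-05, limma) and from 6.87 to 5.78 in cortex (-1.10 ± 0.17, adjusted p 0.000159, limma). Ahcy, which splits S-adenosylhomocysteine into adenosine and homocysteine, fell by 1.58 in corpus callosum (adjusted p 3.56e-05, limma) and by 0.97 in cortex (adjusted p 0.00556, limma). Adk, the kinase that returns adenosine to AMP, fell by 1.05 in cortex (adjusted p 0.00195, limma) and by 0.63 in corpus callosum (adjusted p 0.0434, limma). The adult levels of Dck, Ahcy and Adk lay near or below the array medians, where the size of a difference is uncertain. Nt5c2, a cytosolic nucleotidase, fell from 8.22 to 7.75 in corpus callosum (-0.47 ± 0.12, adjusted p 0.0126, limma).

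Among carriers and release channels, 1 of 7 transporters and 2 of 10 release genes were called in corpus callosum (17.2% of all genes), and 0 of 7 and 2 of 10 in cortex (10.2%). Slc29a3, a nucleoside transporter of lysosomes, was the 1 of 7 transporters called, higher in adult than in P7 corpus callosum (9.52 against 8.92, 0.60 ± 0.18, adjusted p 0.0265, limma). Calhm2, a large-pore channel, rose by 0.82 ± 0.14 in corpus callosum (adjusted p 0.000355, limma) and 0.71 ± 0.14 in cortex (adjusted p 0.00225, limma). Best1, a chloride channel, rose in cortex (0.63 ± 0.14, adjusted p 0.00633, limma). Panx1, the pannexin through which cells release ATP, fell from 6.73 to 6.26 in corpus callosum (-0.48 ± 0.13, adjusted p 0.0142, limma).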
